A study of Mus musculus with 6 samples.

Results

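Phospholipid scramblases were examined in RNA sequencing of immortalized mouse embryonic fibroblasts (MEFs). The set holds 6 of the 26231 genes in the deposited table, namely Plscr1, Plscr2, Plscr3, Plscr4, Ano6 and Xkr8. The genes were taken by symbol and selected on the RPKM difference between the lines, which was already known, since Plscr2 had been among the largest rises there. Differences between the lines are therefore given for these 6 genes as a description, with standard errors and intervals for their spread and with no p-value, and a count of them past the threshold supports nothing.

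The 6 libraries were made from 2 lines of FVB strain cells, with 3 libraries labelled MEF WT (control) and 3 labelled MEF Nf2 KO. All cells came from Nf2 fl/fl embryos of about 14 days in the labels, in which both Nf2 alleles carry loxP sites, and all were immortalized with SV40 large T antigen. The control line received a lentivirus with GFP driven by the CMV promoter, and the other line received a CMV-driven lentivirus with Cre and GFP; CMV is a viral promoter that is active in most cell types. Both were kept without serum for 24 h before RNA was taken. A single line of each kind is described, and nothing says that the libraries of a line were separate cultures, so the p-values below measure only the spread between these libraries, which may be technical.

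A cell membrane keeps phosphatidylserine on its inner side, where ATP-driven flippases return it after it has crossed. Scramblases let phospholipids move between both sides without ATP, and phosphatidylserine on the outer side is a mark for blood clotting and for engulfment of dying cells. Ano6 is a calcium-activated scramblase of the anoctamin family, Xkr8 is a scramblase switched on by caspase cleavage during apoptosis, and the Plscr proteins are a separate family of calcium-binding, palmitoylated proteins whose scrambling activity is debated. Plscr1 is also known as an interferon-induced gene with antiviral activity, and Plscr3 is known as a mitochondrial member.

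Plscr1, Plscr2 and Plscr4 lie on the same strand of chromosome 9. In GRCm38 with the GENCODE vM21 annotation, Plscr1 spans chr9:92249750-92272278, Plscr2 spans chr9:92275602-92297752 and Plscr4 spans chr9:92457373-92492456, all on the plus strand. Plscr3 lies at chr11:69846376-69852058 on the plus strand, Ano6 at chr15:95790843-95974751 on the plus strand and Xkr8 at chr4:132724897-132732546 on the minus strand. The coding sequences of the neighbours Plscr1 and Plscr2 were 84.6% identical over 917 aligned bases, while the other pairs among Plscr1 to Plscr4 were 69.8% to 74.9% identical. Reads of such close copies could in principle be counted for the wrong gene. The longest identical run of the pair, 37 bases in capitals, is therefore shown within a window of each gene. Both windows hold 117 coding bases, and each crosses an intron. The Plscr1 window runs from exon 6 to exon 7 at chr9:92266603-92266819, and the Plscr2 window from exon 5 to exon 6 at chr9:92290851-92291084, both on the plus strand.
Plscr1: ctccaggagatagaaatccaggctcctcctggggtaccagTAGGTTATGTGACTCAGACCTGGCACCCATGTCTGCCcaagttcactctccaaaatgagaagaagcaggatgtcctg
Plscr2: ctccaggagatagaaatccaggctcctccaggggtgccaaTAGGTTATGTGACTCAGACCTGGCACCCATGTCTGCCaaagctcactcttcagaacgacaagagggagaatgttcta
The windows differed at 14 of 117 bases, all outside the capitals. Over all annotated transcripts, the pair shared 16 stretches of 31 bases, which is 0.654% of those of Plscr1 and 0.5003% of those of Plscr2, and it shared no stretch of 40 bases. A read longer than the run of 37 bases would therefore meet a difference between the annotated transcripts of the genes. The read length is not given in the sources used here.

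The libraries held between 13462402 and 73093043 reads, worked out from the steps in the deposited RPKM values (reads per kilobase of exon, scaled to the size of each library), and replicate 3 of both lines, marked 2018 in the labels, was the deepest. Whether a read or a read pair was counted is not stated in the sources used here, and both are called reads. Replicate 2 of both lines stood apart from replicates 1 and 3 over all genes, with 3386 of 11067 genes past the threshold between them. Nf2 RNA was 13.7 ± 0.583 RPKM (SD, n = 3) in the control libraries and 14.1 ± 1.27 RPKM in those labelled MEF Nf2 KO, so the whole-gene level does not check the labels, and directions below follow the labels. Of the 8 fibroblast markers, all were measured in all libraries, and their summed level was 1988 to 2777 RPKM in the control line and 1386 to 1946 RPKM in the other. Between the lines 2 of the 8 passed the threshold, against 1.06% of all genes. They were Pdgfra and S100a4, which fell from 9.75 to 1.01 RPKM and from 684 to 297 RPKM, while Pdgfrb had a difference of 0.02 and the other 5 had negative differences. The 2 calls became 0 without a filter and on leaving out control replicate 1, control replicate 3 or replicate 1 or 2 of the libraries labelled MEF Nf2 KO. They became 1 without replicate 3 of the latter and with the 2018 mark as a covariate. Leaving out a replicate number in both lines gave 0 calls for replicate 1 or 3. For replicate 2 it gave 3, against 4.37% of all genes. With the replicate block 4 of 8 were called, all lower, against 7.53% of all genes. The 7 macrophage markers summed to 7.05 to 8.55 RPKM and 5.93 to 7.47 RPKM, nearly all of it Cd68, with the defining marker Ptprc at 0.00896 RPKM or less; the 5 endothelial markers summed to at most 4.45 RPKM, mostly Kdr, and the 5 epithelial markers to at most 0.874 RPKM. The part of the lower fibroblast markers in any result below was not tested, and in bulk RNA fewer cells of a type and less RNA per cell cannot be told apart.

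Plscr2 RNA was higher in every library labelled MEF Nf2 KO than in any control library. It was 1.64, 2.67 and 0.991 RPKM in control replicates 1, 2 and 3, and 13.0, 11.7 and 6.68 RPKM in replicates 1, 2 and 3 of the other line. The lowest library labelled MEF Nf2 KO, replicate 3, was still above the highest control library, replicate 2. The mean was 1.77 ± 0.847 RPKM in control libraries and 10.5 ± 3.35 RPKM in the others (SD, n = 3 each), a ratio of 5.92. The difference was 2.05 ± 0.298 (SE) on the log2(RPKM + 1) scale, and its SE was 0.129 with the replicate number as a block. Within replicate numbers, which pair the libraries, the difference was 2.41, 1.79 and 1.95 for replicates 1, 2 and 3. By size, this rise ranked 12 from the top among the 11067 genes that reached 1 RPKM in at least 3 libraries.

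These Plscr2 values rested on 70, 161 and 193 reads in control replicates 1, 2 and 3 and on 750, 715 and 1552 reads in the other line. The 95% counting interval was 2.27 to 3.12 RPKM in control replicate 2 and 0.856 to 1.14 RPKM in control replicate 3, so these control libraries differed by more than counting error. Replicate 3 was also the lowest of the libraries labelled MEF Nf2 KO, with an interval of 6.35 to 7.02 RPKM against 10.8 to 12.5 RPKM for replicate 2. Both lines thus had their lowest Plscr2 level in the library marked 2018, the deepest of its line. Intervals cover counting error only.

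**Figure D1:**
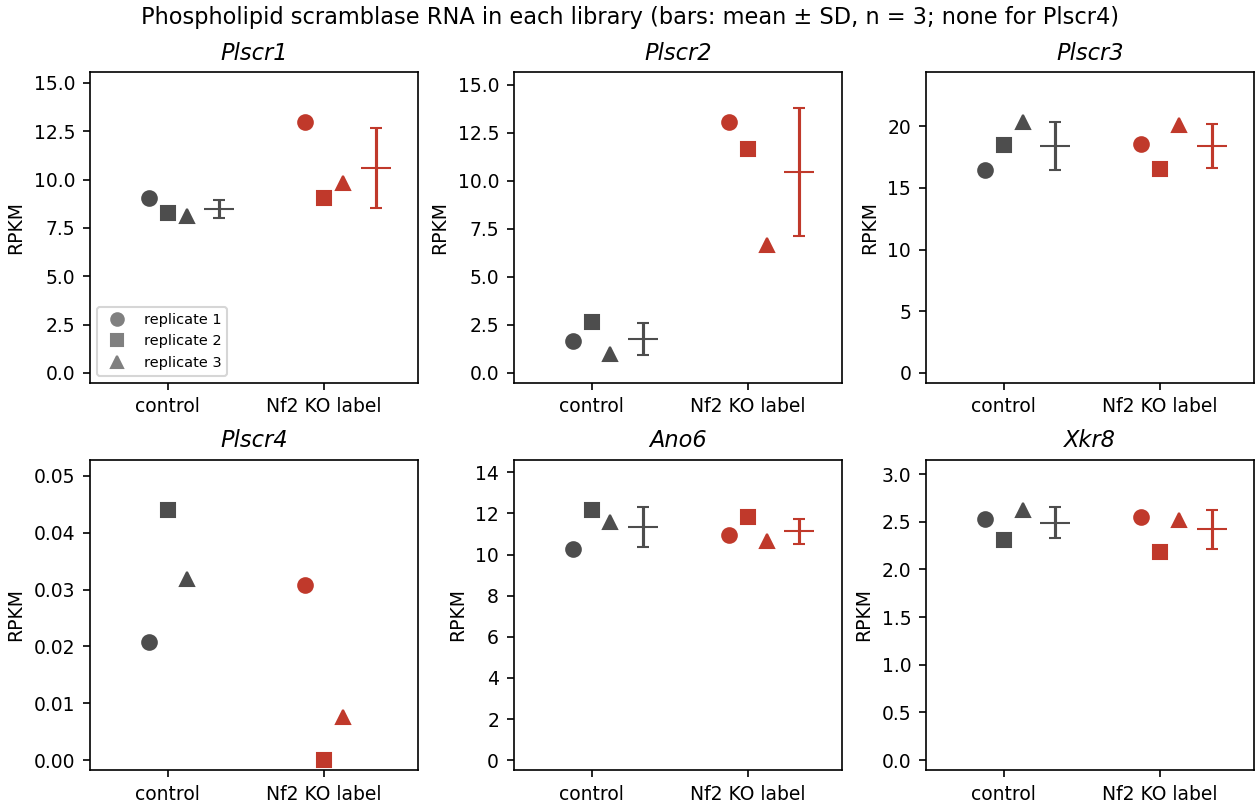
RPKM (linear vertical axes, a separate scale for each gene) of the 6 scramblases in 3 control libraries and 3 libraries labelled MEF Nf2 KO, with marker shapes for replicate numbers and bars for mean ± SD (n = 3), except for Plscr4, which rests on 0 to 7 reads. Plscr2 lies between 0.991 and 2.67 RPKM in control libraries and between 6.68 and 13.0 RPKM in the others, while Plscr3, Ano6 and Xkr8 overlap between the lines.

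Plscr1, the closest relative and upstream neighbour of Plscr2, differed far less. Its level was 9.02, 8.29 and 8.14 RPKM in control replicates 1, 2 and 3 and 13.0, 9.03 and 9.81 RPKM in those labelled MEF Nf2 KO. The groups did not overlap, but replicate 2 of the latter was above control replicate 1 by only a small margin, and replicate 1 stood highest. The means were 8.48 ± 0.472 and 10.6 ± 2.08 RPKM, and the difference was 0.28 on the log2 scale, with an SE of 0.138, or of 0.0864 with the replicate number as a block. Within replicate numbers it was 0.48, 0.11 and 0.24 for replicates 1, 2 and 3, higher in the libraries labelled MEF Nf2 KO in 3 of 3 pairs. Without replicate 1 of the libraries labelled MEF Nf2 KO, the difference was 0.14.

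Because the pair could share reads, their values were also summed. The sum of Plscr1 and Plscr2 was 10.7, 10.96 and 9.13 RPKM in control replicates 1, 2 and 3 and 26.0, 20.7 and 16.5 RPKM in the other line, with means of 10.2 ± 0.980 and 21.1 ± 4.77 RPKM. The groups did not overlap in the sum either, and the difference was 0.95 on the log2 scale. The genes differ in exon length, so this sum changes with the split of reads between them; the sum of their reads, scaled to library size alone, does not, and it gave a difference of 1.11. Within the pair, the balance differed too. Plscr2 took 19.0%, 29.4% and 13.6% of the pair's reads in control replicates 1, 2 and 3 and 56.5%, 62.5% and 46.8% in the libraries labelled MEF Nf2 KO. The closest approach was between control replicate 2, with a 95% Wilson interval of 25.7% to 33.3%, and replicate 3 of the other line, with 45.1% to 48.5%. Per length, Plscr2 stood at 0.122 to 0.322 of the Plscr1 level in control libraries and at 1.01, 1.29 and 0.681 of it in replicates 1, 2 and 3 of the libraries labelled MEF Nf2 KO.

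**Figure D2:**
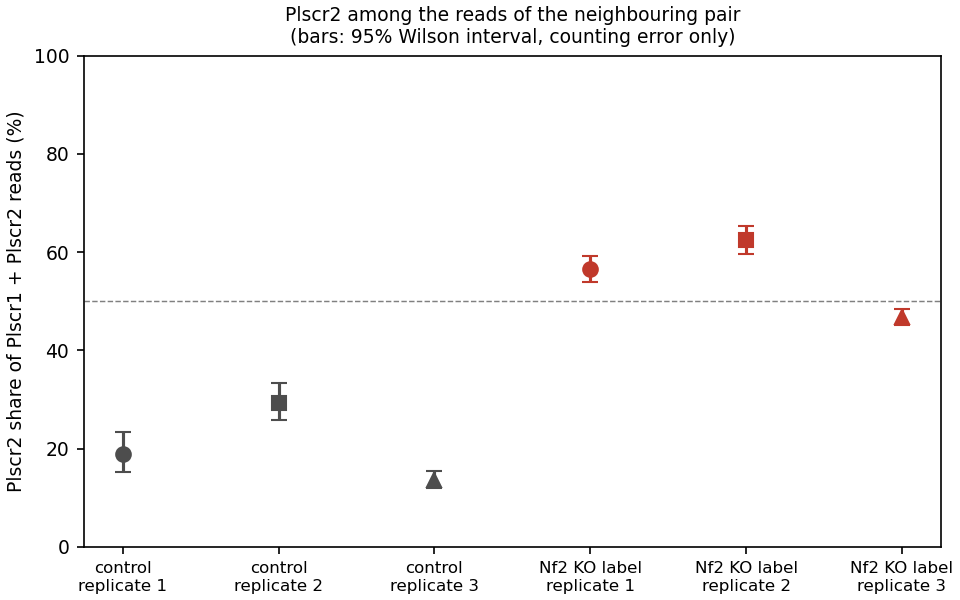
Percent of the reads of Plscr1 and Plscr2 together that were counted for Plscr2, in each of the 6 libraries, with 95% Wilson intervals for counting error and a dashed line at equal shares. The 3 control libraries lie between 13.6% and 29.4% and the 3 libraries labelled MEF Nf2 KO between 46.8% and 62.5%.

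Other genes could also hold reads of the scramblases. Plscr1 shared 19.6% of its stretches of 31 bases with the processed pseudogene Gm5530, whose own counts were 0, 1 and 2 reads in control replicates 1, 2 and 3 and 2, 3 and 9 reads in the libraries labelled MEF Nf2 KO, against 299 to 1765 reads for Plscr1. Plscr3 shared 25.9% with Tnk1, a kinase gene that overlaps it on the opposite strand, and Tnk1 was at most 0.0266 RPKM. Without strand information the reads of these overlapping genes cannot be told apart. Plscr2 shared 4.07% of its stretches with at least 1 of 2173 other genes, with the highest share, 1.88%, for Trpm1, a cation channel gene. For Ano6 the share was 4.09%, over 3214 genes, and for Xkr8 it was 1.82%, over 1917 genes. Reads from these shared stretches were not separated here. Plscr4 shared no such stretch with any gene.

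Plscr3 and Plscr4 had values that overlapped between the lines. Plscr3 was 16.5, 18.4 and 20.3 RPKM in control replicates 1, 2 and 3 and 18.5, 16.6 and 20.1 RPKM in those labelled MEF Nf2 KO. The ranges overlapped almost fully, replicate 3 was highest in both lines, and the 95% interval of the difference was -0.28 to 0.28 on the log2 scale, around an estimate of 0.00036. Plscr4 was at or close to the limit of detection, with 1, 3 and 7 reads in control replicates 1, 2 and 3 and 2, 0 and 2 reads in the other line, that is, 0 to 0.0441 RPKM. It did not reach the filter, and the count of 0 in replicate 2 allows a level of up to 0.0433 RPKM (3 reads), so a difference in Plscr4 was not detectable at this depth.

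The scramblases of the other families overlapped between the lines too. Ano6 was 10.3, 12.2 and 11.6 RPKM in control replicates 1, 2 and 3 and 10.95, 11.8 and 10.6 RPKM in those labelled MEF Nf2 KO. All of the latter lay inside the control range, and the difference was -0.02 (95% interval -0.25 to 0.21, log2 scale). Xkr8 was 2.53, 2.31 and 2.63 RPKM in control libraries and 2.55, 2.19 and 2.52 RPKM in the others, in replicate order. Replicate 2 was the lowest in both lines, and the difference was -0.03 (95% interval -0.27 to 0.21).

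In counts, 1 of the 5 scramblases tested, Plscr2, passed an adjusted p of 0.05 in limma, where 1.06% of all 11067 genes tested did so. With the replicate number as a block it was again 1 of 5, against 7.53% of all genes. Plscr1 and Plscr2 were the 2 of 5 whose groups did not overlap, against 15.1% of all genes. The choice of the genes used this comparison, so nothing is read from these counts or from the calls behind them. The Plscr2 call was lost on leaving out control replicate 1, control replicate 3 or any of the libraries labelled MEF Nf2 KO, with differences of 1.83 to 2.31 in the fits that left out 1 library. The fits with libraries left out had no block.

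**Figure D3:**
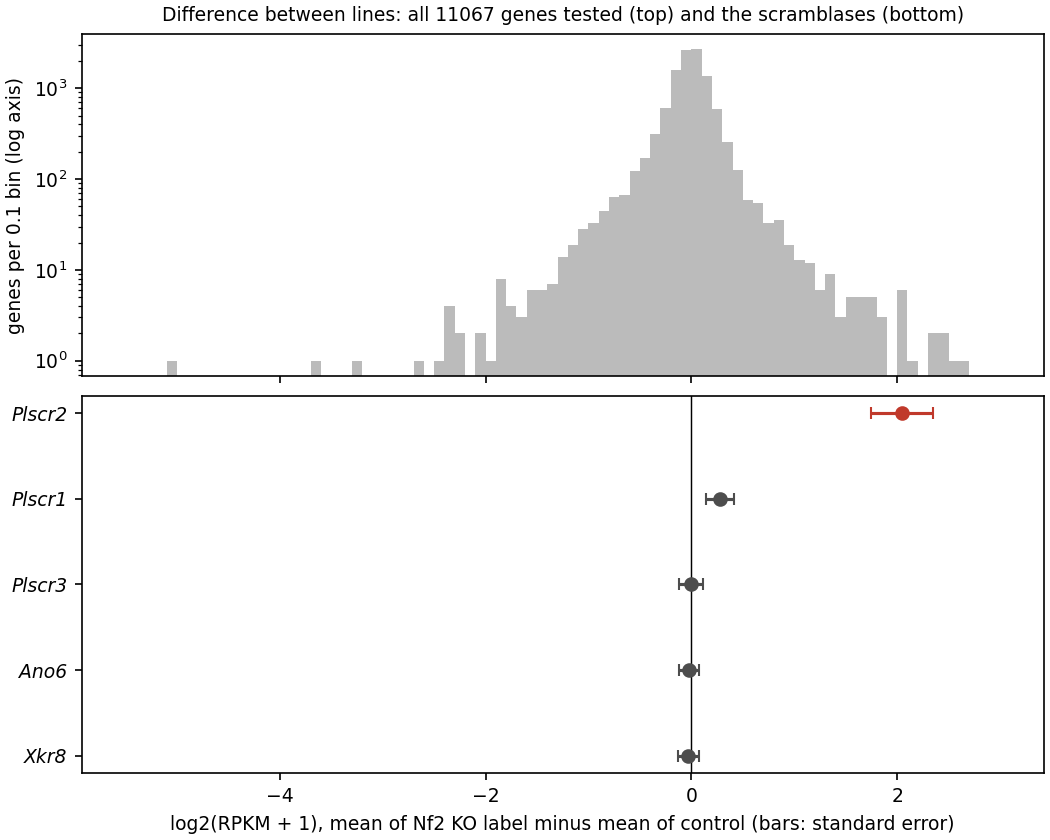
Top, histogram of the difference between lines in log2(RPKM + 1) for all 11067 genes tested (vertical log axis, genes per bin). Bottom, the same difference for the 5 scramblases tested, with standard errors: Plscr2 lies at 2.05, Plscr1 at 0.28, and Plscr3, Ano6 and Xkr8 within 0.03 of zero.

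In order of mean RPKM over the 6 libraries, a level per length, Plscr3 was highest at 18.4 ± 1.66 (SD, n = 6), followed by Ano6 at 11.2 ± 0.738, Plscr1 at 9.54 ± 1.78, Plscr2 at 6.11 ± 5.24 and Xkr8 at 2.46 ± 0.168, with Plscr4 last at 0.0225. Plscr3 exceeded Ano6 in 6 of 6 libraries. Ano6 exceeded Plscr1 in 5 of 6, all but replicate 1 of the libraries labelled MEF Nf2 KO, and their means differed by less than the SD of Plscr1. The place of Plscr2 depended on the line. In control libraries it was below Plscr1 in 3 of 3 and below Xkr8 in 2 of 3, and in the libraries labelled MEF Nf2 KO it was above Xkr8 in 3 of 3 and above Plscr1 in 2 of 3. Plscr3 made up 60.7%, 62.6% and 68.9% of the summed RPKM of Plscr1 to Plscr4 in control replicates 1, 2 and 3, and 41.6%, 44.4% and 55.0% in the other line.

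The genes around the chromosome 9 cluster were examined next, to see whether a wider stretch differed. Plscr4 and 1700057G04Rik were at most 0.0525 RPKM in any library. Plod2, a collagen lysyl hydroxylase gene within 250 kb, was 42.2, 33.5 and 42.7 RPKM in control replicates 1, 2 and 3 and 52.9, 45.2 and 44.5 RPKM in those labelled MEF Nf2 KO. The groups did not overlap, but the difference of 0.27 ± 0.131 (SE) had a limma adjusted p of 0.617. Plscr5 was not analysed here.

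RefSeq promoters, from 250 bases before to 50 bases after a start on GRCm38.p6, were matched for 4 of the 6 genes, Plscr1, Plscr3, Plscr4 and Ano6, and not for Plscr2 and Xkr8. The interferon-stimulated response element core, searched like the other elements on both strands, was in none of the 4 and in 3.44% of 32851 promoters. The STAT element TTCNNNGAA was in the Plscr1 promoter only, starting 90 bases before the start, and in 8.30% of all promoters. The TEAD element GGAATG was at 1 of 3 starts of Plscr3 and in 14.7% of all promoters. A match is a description of letters.

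The comparison of replicate 2 with replicates 1 and 3 was not used to choose the genes. The split itself was taken up with replicate 2 already known to stand apart over all genes in these data. Counts over all genes and over lists are therefore a description, and the p-values are no fresh test of the split. Of the 5 scramblases tested, 0 passed the threshold in limma with the line as a covariate, and 0 had an unadjusted p under 0.05, while 30.6% of all genes passed. Plscr2 was 0.48 ± 0.253 (SE, log2 scale) higher in replicate 2, with an adjusted p of 0.190 and a 95% interval of -0.13 to 1.09. Without replicate 1 of the libraries labelled MEF Nf2 KO it passed, at 0.70 and a limma adjusted p of 0.0171. This was the highest value with 1 library left out, and the lowest was 0.29, without control replicate 2. Plscr1 differed by -0.17 (adjusted p in limma 0.320) and Ano6 by 0.13 (0.218). The Plscr1 difference ran from -0.29 to -0.04 with 1 library left out. Plscr3 differed by -0.10 (0.496), and by 0.01 without replicate 2 of the libraries labelled MEF Nf2 KO. Xkr8 differed by -0.13 (0.252) as deposited and by 0.01 with quantile normalization. Over all genes, 1195 were higher and 2191 lower in replicate 2 as deposited, and 1553 were higher and 1412 lower after quantile normalization.

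Plscr1 belongs to the interferon-induced genes, and 13 other genes of that kind reached the filter. In replicate 2, 8 of the 13 fell past the threshold and 0 rose, against 19.8% lower and 10.8% higher over all genes, with a list median of -0.55 beside -0.08 for all genes; after quantile normalization 8 of 13 fell past it and 1 rose. Cell type markers moved in the same libraries. Of the 8 fibroblast markers, 5 fell past the threshold, with a list median of -0.75, and the endothelial marker Kdr, the only one of its list to reach the filter, rose by 1.02. Their part in the lower interferon-induced genes was not tested. Ifit1, which binds viral RNA, was 7.66, 1.21 and 7.04 RPKM in control replicates 1, 2 and 3 and 7.85, 1.46 and 5.85 RPKM in those labelled MEF Nf2 KO, and Isg15, a ubiquitin-like modifier, fell by 1.49 on the log2 scale. The difference between Plscr1 and these genes was not tested. Between the lines, 1 of the 13 passed, against 1.06% of all genes. Ifi27 was 10.3, 13.0 and 9.77 RPKM in control libraries and 5.65, 5.80 and 4.42 RPKM in the others, in replicate order, a difference of -0.94 with a limma adjusted p of 0.0432. That call was lost with quantile normalization, with median centring, without a filter and on leaving out any of the 6 libraries. With the replicate block 2 of 13 were called, against 7.53% of all genes, Ifi27 and, in the other direction, the viral RNA sensor Ifih1 at 1.06 RPKM in control libraries and 1.81 RPKM in the others (adjusted p in limma 0.0410). The list median was -0.15 beside -0.01 for all genes. With 1 library left out it ran from -0.46, without control replicate 2, to 0.12, without replicate 2 of the libraries labelled MEF Nf2 KO.

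Genes that work with or against scramblases were taken in 6 further lists. Among other known or proposed scramblases, 18 of 20 had a value and 8 reached the filter, and 0 of 8 passed the threshold between the lines, against 1.06% of all genes. Vmp1 and Tmem41b, scramblases of the endoplasmic reticulum, had the highest levels, 44.6 and 43.6 RPKM for Vmp1 and 10.3 and 10.5 RPKM for Tmem41b as means of control and other libraries. Ano10, the anoctamin with the highest level in this list, was 7.58 ± 0.755 and 8.84 ± 0.182 RPKM. The anoctamins Ano2, Ano4, Ano7 and Ano9 were at most 0.0260 RPKM.

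Flippases gave 0 of 8 called, against 1.06% of all genes. Tmem30a, the CDC50 subunit that most flippases need, was 40.2 ± 3.09 and 46.1 ± 3.95 RPKM, and Atp11a, a plasma membrane flippase, was 12.2 ± 2.03 and 13.3 ± 1.34 RPKM (SD, n = 3 each). With the replicate block, 1 of 8 was called, against 7.53% of all genes. This was Atp8b2, at 15.3 RPKM in control libraries and 12.1 RPKM in the others (adjusted p in limma 0.0495). Lipid-exporting ABC transporters gave 0 of 6 called, and with the block 1 of 6, beside the same shares of all genes. It was Abcc1, at 11.5 and 8.91 RPKM (adjusted p in limma 0.0455).

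Genes of phosphatidylserine synthesis and transport gave 0 of 7 called with and without the block, against 7.53% and 1.06% of all genes. Ptdss1, which makes phosphatidylserine from phosphatidylcholine, was 15.3 ± 0.784 RPKM in control libraries and 16.2 ± 1.24 RPKM in the others, and Osbpl5, which carries it to the plasma membrane, was 13.8 ± 1.54 and 12.7 ± 1.44 RPKM. Xkr8 partners and apoptotic caspases likewise gave 0 of 8, beside the same shares. Basigin (Bsg), an obligate partner that carries Xkr8 to the plasma membrane, was 387 ± 25.3 RPKM in control libraries and 340 ± 41.2 RPKM in the others. Neuroplastin (Nptn), a related partner, was 42.6 ± 3.16 and 46.6 ± 3.51 RPKM.

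Genes that bind phosphatidylserine or engulf cells that show it gave 0 of 16 called, against 1.06% of all genes. With the replicate block 5 of 16 were called, against 7.53% of all genes. Gulp1, an engulfment adaptor, was higher at 7.89, 4.42 and 9.20 RPKM in control replicates 1, 2 and 3 against 19.4, 10.9 and 21.6 RPKM, a difference of 1.16 with an adjusted p in limma of 0.00191 under the block and 0.225 without it. The other 4 were lower. They were Mfge8, a secreted bridging protein (42.6 to 33.9 RPKM), the receptor kinases Axl (90.1 to 65.0 RPKM) and Mertk (3.32 to 2.06 RPKM), and Itgb3, an integrin chain that binds Mfge8 (2.51 to 1.495 RPKM). Their adjusted p in limma was 0.0379, 0.0310, 0.0450 and 0.0391 with the block. Anxa5, the phosphatidylserine-binding annexin, was 279 and 280.3 RPKM.

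Over the 7 lists together, 1 of 66 genes tested was called without the block and 9 of 66 with it, 2 higher and 7 lower, against 1.06% and 7.53% of all genes. List medians ran from -0.15 to 0.11 on the log2 scale, beside -0.01 for all genes tested. Both ends moved with 1 library left out. The lowest, of the interferon-induced genes, ran from -0.46 to 0.12, and the highest, of the lipid-exporting ABC transporters, from 0.02 to 0.27. In the comparison of replicate 2, 29 of the 66 were called, 5 higher and 24 lower, and with quantile normalization 24, 8 higher and 16 lower, against 30.6% and 26.8% of all genes.

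**Figure D4:**
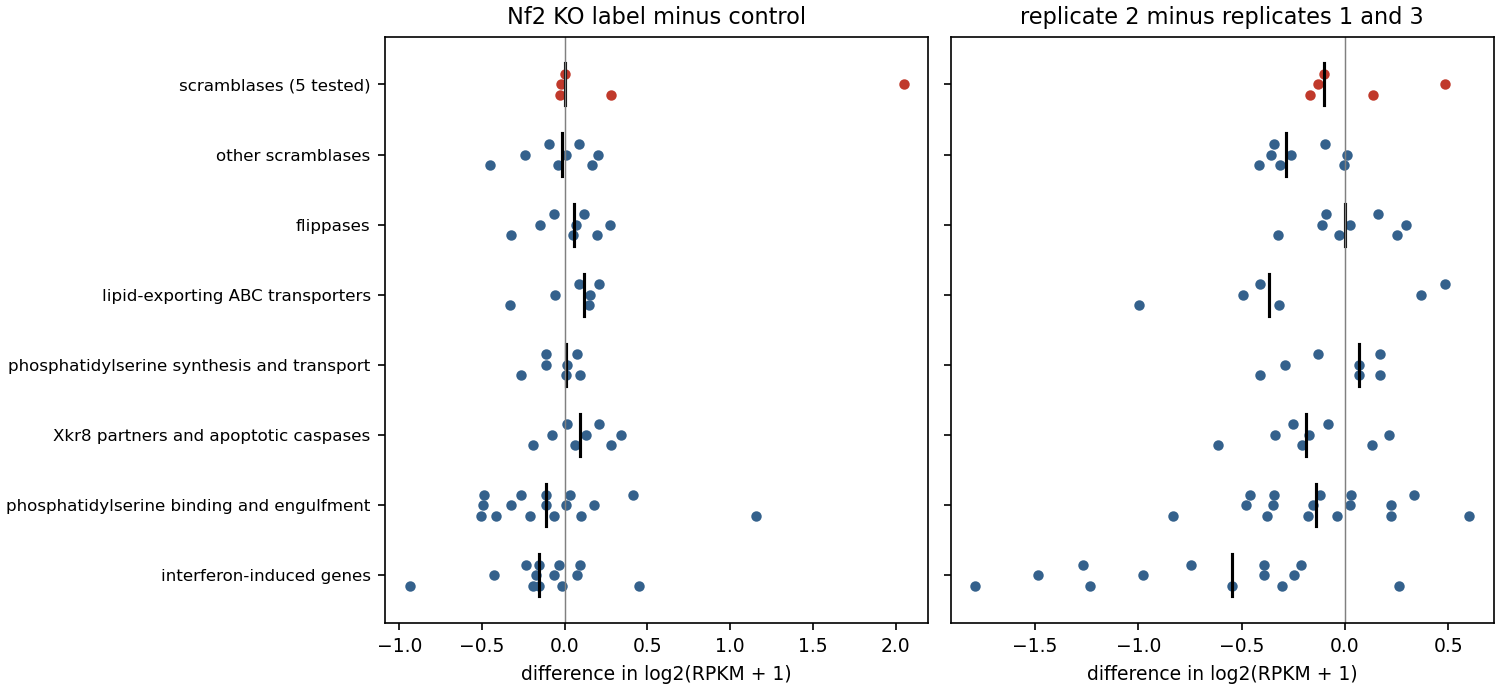
Difference in log2(RPKM + 1) of each tested gene in the scramblase set (red) and in the 7 related lists (blue), between the lines (left) and between replicate 2 and replicates 1 and 3 (right), with black bars for list medians. On the left, Plscr2 at 2.05 lies beyond the genes of the related lists, of which Gulp1 is highest at 1.16; on the right, the interferon-induced genes lie lowest, with a median of -0.55.

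The genes whose profile over the 6 libraries lay nearest to that of Plscr2 were Slit2, Jag1, Cxadr, 4930486L24Rik and Sema3e. With a pseudocount of 0.1 in place of 1, only 2 of these, Slit2 and Cxadr, were among the nearest 5. Likeness was the root mean square difference of centred log2(RPKM + 1) values, 0.292 for Slit2, a guidance ligand, and 0.398 for Sema3e, a semaphorin. Jag1, a Notch ligand, had 0.320 and was 2.03, 4.68 and 3.37 RPKM in control replicates 1, 2 and 3 and 17.1, 21.9 and 13.3 RPKM in those labelled MEF Nf2 KO. It was highest in replicate 2 in both lines, whereas Plscr2 was highest there only in the control line. Cxadr, an adhesion protein that also serves as a virus receptor, had 0.332. Plscr1 ranked 547 of 11066 genes by this measure, ahead of Ano6 at 4656, Plscr3 at 5984 and Xkr8 at 6026. The line was not removed from the profiles, so the measure includes the difference between lines on which Plscr2 was chosen. The 5 nearest genes had line differences of 1.65 to 2.10 on the log2 scale. Nothing further is read from these ranks.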

How the data were processed

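RNA was sequenced from 3 libraries of each MEF line. The authors deposited 1 table of 26231 genes, and the unit, RPKM (reads per kilobase of exon, scaled to library size), was worked out from the values: multiplied by GENCODE vM21 exon length, between 83.2% and 85.1% of low values (20 reads or fewer) came out whole within 0.05 read, where 10% would be by chance. Reads recovered for Plscr1, Plscr2, Plscr4 and Xkr8 were whole in all 6 libraries, while those of Plscr3 were whole in 3 and those of Ano6 in 0. The submitters' processing notes name mm10; the aligner and counter are not given in the sources used here.

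The 11067 genes that reached 1 RPKM in 3 or more libraries were put on the log2(RPKM + 1) scale and fitted by limma 3.58.1 under R 4.3.3 (trend and robust settings, two-sided, Benjamini-Hochberg, threshold 0.05), without a covariate. A fold change on this scale understates that of low genes. Libraries that share a replicate number deviated together from the means of their lines, with correlations of 0.552, 0.819 and 0.516 for replicates 1, 2 and 3. The labels also give both lines the same marks (A, B and 2018). The numbers were therefore treated as pairs in the replicate block, while the main fit and its intervals left the pairing out. No library was a duplicate: the median squared difference between libraries of a line was 5.38 to 18.6 times that of sampling noise.

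The members, the lists and the split of replicate 2 from replicates 1 and 3 were chosen with earlier results of these data known. Genes named are the members, Nf2, Plscr5, genes called in each list with its 3 highest, the 5 profiles nearest to Plscr2, neighbours within 250 kb and genes sharing most sequence; Ifit1, Isg15, Kdr, Cd68, Ptprc and the low anoctamins, and those called only with the block, were added after their values were seen. Some genes of the lists are not reported here. Alternatives were the block, the 2018 mark, voom on recovered reads, leaving out libraries, limma without trend, filters of none or 5 RPKM, a pseudocount of 0.1, and median or quantile scaling. On simulated data for the line comparison, 88% of 200 genes changed by 1.5 (log2) among 11067 were recovered, and 92.5% with the block. The simulation drew normal values with the same replicate correlation for every gene and replicate number, unlike the data. It therefore checks the fit and does not measure the power in these libraries. Coding sequences came from GENCODE vM21 and promoters from RefSeq; protein sequences were not used here.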

Additional observations from a re-analysis of the deposited data

How the results depend on the processing

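The log2 difference of Plscr2 between the lines stayed positive under all alternatives run, from 1.83 to 2.71, with 2.55 for a pseudocount of 0.1 and 2.71 for voom on recovered reads; the count of scramblases past the threshold, which supports nothing here, was 0 without the filter, as without replicate 1 or replicate 3 of both lines. Leaving out replicate numbers or single libraries gave 0 to 1 scramblases past the threshold, 0 to 484 genes over the whole table (484 without replicate 2 and 0 without replicate 1 or replicate 3) and 0 to 3 genes of the related lists. The count over the whole table, 117, was 9 without a filter, 63 with a filter of 5 RPKM, 62 with the 2018 mark as a covariate and 833 with the replicate block. The related lists gave 0 calls with quantile normalization, median centring or no filter and 9 with the replicate block, which pairs same-numbered libraries. The block left the scramblase count at 1 and the sum of Plscr1 and Plscr2 at 0.95, which ranged from 0.82 to 1.11 over its alternatives. In the comparison of replicate 2, 0 scramblases were called in all alternatives except without replicate 1 of the libraries labelled MEF Nf2 KO, which gave 1 (Plscr2, 0.70); Plscr3 turned to 0.011 without replicate 2 of the same line, within -0.21 to 0.011 over single libraries left out, and Xkr8 to 0.011 with quantile normalization. With a pseudocount of 0.1, 2 of the 5 nearest profiles were shared. The causes of these changes were not tested. Depth limits Plscr4, with at most 7 reads in a library, and Plscr2 in the control line, with as few as 70.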
